A study of Mus musculus with 5 samples.

Results

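The genes described here are 9 transcripts used to tell the pyramidal subfields of the hippocampus apart: *Wfs1*, *Pou3f1*, *Fibcd1* and *Spink8* for CA1, *Rgs14*, *Amigo2* and *Pcp4* for CA2, and *Bok* and *Iyd* for CA3. They were chosen by name from a list of 4 CA1, 3 CA2 and 2 CA3 genes, and make up 9 of the 23361 gene symbols measured. Expression was measured by RNA-seq of whole hippocampal tissue from male mice aged 3 months. There were 2 control mice, *Hdac1* f/f without Cre, and 3 *Hdac1* cKO mice, *Hdac1* f/f with *Nestin-Cre*, with 1 library each. Both groups therefore carried the floxed allele, and the Cre transgene and the loss of *Hdac1*, a class I histone deacetylase gene, cannot be told apart in this design. *Nestin-Cre* acts in neural progenitors and removes the gene from neurons and astrocytes, so the deletion is not particular to pyramidal cells or to a subfield. Values are FPKM, read fragments scaled by transcript length and by library size, so levels of different genes can be compared.

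The hippocampal circuit runs from the dentate gyrus to CA3, from CA3 to CA1, and through the small CA2 field between them. Pyramidal neurons of all 3 fields release glutamate but hold different transcripts. CA1 cells are the main output to the subiculum and cortex, CA2 cells are known for their part in social memory and for their resistance to long-term potentiation, and CA3 cells are known for recurrent connections among themselves. Bulk tissue mixes these fields with the dentate gyrus and with glia, so fewer cells of a field and less RNA per cell cannot be told apart in any value below. Several of the genes are also active outside their field. *Wfs1* and *Pou3f1* are expressed in upper cortical layers, and *Pcp4* is expressed in other brain regions too.

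The promoter windows of the genes are shown first, so that shared sequence within a field can be looked for. RefSeq windows (build GRCm38.p6, 250 bases before to 50 after the start of the gene) matched 6 of the 9 genes: *Wfs1*, *Fibcd1*, *Amigo2*, *Pcp4*, *Bok* and *Iyd*. *Pou3f1*, *Spink8* and *Rgs14* had no entry. The 4 printed here are the pair of CA1 genes with the narrowest intervals in the genotype contrast, and the CA2 and CA3 genes with the highest levels. They are given 5′ to 3′ in the direction of transcription, and capitals mark a match to one of 4 motifs on either strand.
Wfs1 (chr5:36988933-36989232, minus strand): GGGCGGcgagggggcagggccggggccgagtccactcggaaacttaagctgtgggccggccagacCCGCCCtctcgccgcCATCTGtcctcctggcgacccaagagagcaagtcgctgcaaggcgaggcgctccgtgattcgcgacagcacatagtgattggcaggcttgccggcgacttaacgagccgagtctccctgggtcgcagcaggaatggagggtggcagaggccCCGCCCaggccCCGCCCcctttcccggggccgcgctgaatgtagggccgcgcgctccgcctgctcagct
Fibcd1 (chr2:31845956-31846255, minus strand): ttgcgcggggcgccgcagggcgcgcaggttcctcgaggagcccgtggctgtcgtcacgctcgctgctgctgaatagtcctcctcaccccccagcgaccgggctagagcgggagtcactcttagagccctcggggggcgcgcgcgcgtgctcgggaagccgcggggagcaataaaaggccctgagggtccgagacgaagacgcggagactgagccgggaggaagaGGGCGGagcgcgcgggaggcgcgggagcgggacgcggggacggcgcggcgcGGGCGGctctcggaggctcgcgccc
Pcp4 (chr16:96467356-96467655, plus strand): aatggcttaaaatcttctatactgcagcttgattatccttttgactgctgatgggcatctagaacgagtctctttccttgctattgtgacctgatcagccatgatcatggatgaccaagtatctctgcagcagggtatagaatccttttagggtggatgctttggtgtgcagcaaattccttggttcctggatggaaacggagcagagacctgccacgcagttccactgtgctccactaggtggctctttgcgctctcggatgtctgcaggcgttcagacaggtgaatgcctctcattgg
Bok (chr1:93685325-93685624, plus strand): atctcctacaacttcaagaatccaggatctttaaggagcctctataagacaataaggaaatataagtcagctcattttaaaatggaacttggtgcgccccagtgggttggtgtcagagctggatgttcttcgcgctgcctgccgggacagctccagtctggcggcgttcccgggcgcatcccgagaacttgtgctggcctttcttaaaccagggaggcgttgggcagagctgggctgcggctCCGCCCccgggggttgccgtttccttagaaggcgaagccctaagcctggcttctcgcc

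The motifs searched were GGGCGG (the GC box), ATGCAAAT (the octamer read by POU factors), CAGATG (an E-box) and TATAAA, each on both strands, and none of them holds another. The GC box occurred 4 times in the *Wfs1* window, 2 times in *Fibcd1*, 5 times in *Amigo2* and 1 time in *Bok*, and its letters were in neither *Pcp4* nor *Iyd*. Among all 32851 RefSeq windows of this length, 35.7% held it. The E-box was found 1 time each in *Wfs1* and *Iyd* (17.2% of all windows held it), the TATAAA letters 1 time in *Iyd* (13.6%), and the octamer in none of the 6 (1.74%). The windows split by base composition, with a GC content of 70.0% in *Wfs1*, 74.3% in *Fibcd1* and 83.3% in *Amigo2*, against 48.7% in *Pcp4* and 49.0% in *Iyd*. *Bok* lay between them at 56.3%. Both CA1 genes with a window held the GC box, while the CA2 windows of *Amigo2* and *Pcp4*, and the CA3 windows of *Bok* and *Iyd*, differed in it. Among all windows, GC content was at percentile 90.9 in *Wfs1*, 95.8 in *Fibcd1*, 99.8 in *Amigo2* and 61.6 in *Bok*. It was at percentile 35.6 in *Pcp4* and 36.9 in *Iyd*, and the part of base composition in these matches was not tested.

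The libraries held 565363 to 636705 FPKM in total and 12680 to 12745 genes at 1 FPKM or more. Depth, estimated from the spacing of low values, was about 5120000 to 6750000 fragments and lowest in cKO 2. *Hdac1* itself read 8.95 and 13.1 FPKM without Cre, against 1.95, 3.12 and 3.37 FPKM with it (log2 fold change −1.66, adjusted p = 0.219, and 0.00389 with the set described next in the model), so its level followed the labels, although 98.8% of 2004 nt of its transcript also match chromosome 17 at *Gm10093*. The libraries fell into sets by the steps in their low FPKM values, set 1 with control 1 and cKO 1, and set 2 with control 2, cKO 2 and cKO 3. Library pairs inside a set shared 24.6% to 28.4% of low genes in the fullest window of their ratio, against 3.71% to 4.64% for pairs across sets. The labels do not say what the sets are. Genotype differences are therefore also given within each set.

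All 9 genes were above the minimum mean of 1 FPKM and were tested. Their levels spanned from *Pcp4* (211 ± 39.8 FPKM, SD, n = 5), at percentile 97.3 of the 12740 tested genes, to *Iyd* (3.12 ± 1.04 FPKM), at percentile 17.4. Between them stood *Bok* (60.0 ± 8.88 FPKM), *Rgs14* (38.5 ± 2.40), *Fibcd1* (30.6 ± 2.43), *Spink8* (29.8 ± 13.3), *Wfs1* (21.7 ± 3.51), *Pou3f1* (19.6 ± 7.43) and *Amigo2* (6.59 ± 0.772). Of the 8 neighbouring pairs in this order 3 overlapped in FPKM: *Fibcd1* with *Spink8*, *Spink8* with *Wfs1*, and *Wfs1* with *Pou3f1*. The 4 CA1 genes thus formed a run of overlapping neighbours, and the CA2 and CA3 genes lay above or below that run by their means. The spread over libraries differed widely, with a coefficient of variation of 6.24% in *Rgs14* and 44.6% in *Spink8*. The highest library was at least 2 times the lowest in 3 of the 9 genes (*Pou3f1*, *Spink8* and *Iyd*), against 7.17% of all tested genes.

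**Figure D1:**
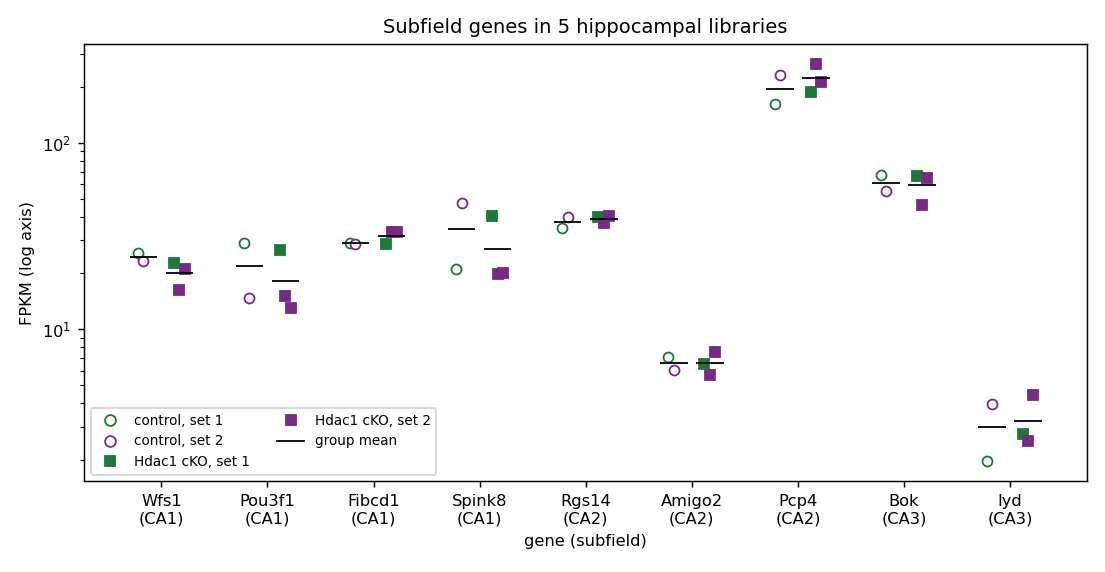
FPKM (log axis) of each subfield gene in each library; open circles are controls, filled squares *Hdac1* cKO, green set 1, purple set 2, and lines the group means. Groups overlap in every gene but *Wfs1*, and *Pou3f1* splits by colour, with 28.8 and 26.5 FPKM in set 1 and 13.0 to 15.1 FPKM in set 2.

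The first question was whether the loss of *Hdac1* changed transcripts of any subfield in young mice. None of the 9 genes passed the study's threshold, which asks for 1.5-fold or more and an unadjusted p under 0.05 (0 of 9, limma), against 0.659% of all 12740 tested genes. At an unadjusted limma p under 0.05 the count was also 0 of 9, against 4.36% of all tested genes, and the smallest adjusted p was 0.955. That count depended on the setting. *Wfs1* had an unadjusted limma p of 0.0265 without cKO 1, where 7.61% of all tested genes were under 0.05, and of 0.0379 after rescaling to a common total (4.32%). *Pcp4* had 0.0478 without control 2 (5.38%) and *Spink8* 0.0317 without control 1 (3.27%). With the replicate number as a block, which leaves the 4 libraries other than cKO 3 to set the estimate, *Wfs1* had 0.0173 and *Pcp4* 0.0199, and 11.2% of all tested genes were under 0.05. With set in the model the count was 0 of 9, against 9.34% of all tested genes. The direction was mixed, with 4 genes higher and 5 lower in cKO and a median log2 fold change of −0.0055, where the median of all tested genes was 0.01. By field the medians were −0.26 for CA1 (3 of 4 lower), 0.07 for CA2 (2 of 3 higher) and 0.03 for CA3 (1 of 2 higher). Within set 1 these medians were −0.07, 0.19 and 0.17, and within set 2 they were −0.19, 0.04 and −0.10, so CA3 took the opposite sign between the sets. These medians are descriptions of 2 to 4 genes each, and single libraries moved them. The CA1 median was −0.046 without control 1 and −0.46 without cKO 1, and was negative under all 14 alternatives. These reuse the same libraries and are not independent, and some of them, such as those of the filter, could not move it. The CA3 median was −0.10 without cKO 3 and 0.17 without cKO 2. On the log2 scale the 95% intervals of *Wfs1*, *Pou3f1*, *Spink8*, *Pcp4* and *Iyd* reached a 1.5-fold change in 1 direction. Those of *Fibcd1*, *Rgs14*, *Amigo2* and *Bok* did not reach it in either.

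**Figure D2:**
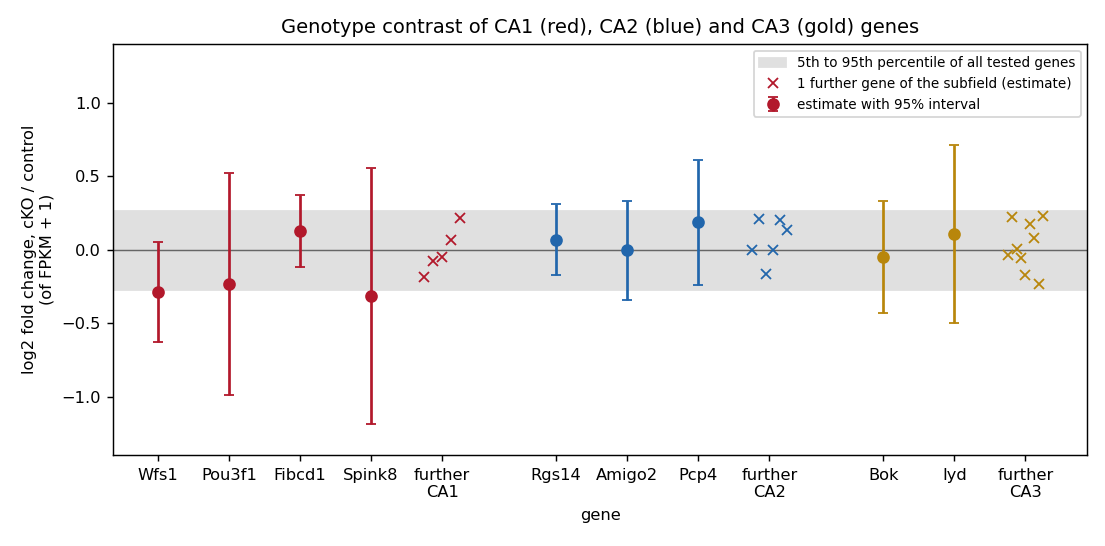
Log2 fold change (cKO over control, of FPKM + 1) of each subfield gene as a circle with its 95% interval, and of further genes of each field as crosses; the grey band spans the 5th to 95th percentile of all tested genes. Every interval of the 9 genes includes 0, and *Wfs1* (−0.29) and *Spink8* (−0.32) lie just outside the band.

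*Wfs1* encodes wolframin, a membrane protein of the endoplasmic reticulum whose loss causes Wolfram syndrome, and is often used to stain CA1. Its locus (ENSMUSG00000039474.7) is chr5:37357343-37380221, minus strand (mm9). Control libraries held 25.5 and 23.3 FPKM, and the cKO libraries held 22.7, 16.2 and 21.0. It was the 1 gene of the 9 whose groups did not overlap, and 20.4% of all tested genes did not overlap either. The group means were 24.4 ± 1.61 FPKM (SD, n = 2) and 19.9 ± 3.39 FPKM (SD, n = 3), which puts cKO at 81.7% of control. Its log2 fold change was −0.29 (SE 0.15, 95% interval −0.63 to 0.05, adjusted p = 0.955), with an exact permutation p of 0.2 where 0.1 is the smallest that 2 against 3 allows. It was −0.16 within set 1 and −0.32 within set 2. It was negative under all 14 alternatives, from −0.39 to −0.15, the latter without cKO 2, which held the lowest value. These alternatives reuse the same libraries, so they are not independent. Transcripts as rich in GC as *Wfs1* (57.3%, in the highest GC quintile of tested genes) had a median log2 fold change of −0.09, and the part of base composition in its value was not tested.

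*Fibcd1*, which encodes a membrane receptor that binds chitin and other acetylated sugars, was the steadiest CA1 gene. Its locus is chr2:31668810-31701525, minus strand (mm9). Its level was 29.0 and 28.8 FPKM without Cre, against 28.7, 33.3 and 33.3 FPKM with it. The 2 cKO libraries of set 2 were the highest of the 5, while cKO 1 was level with the controls. The genotype difference was 0.13 (SE 0.11, 95% interval −0.12 to 0.37, adjusted p = 0.955). It was −0.01 within set 1 and 0.20 within set 2. *Fibcd1* and *Wfs1* therefore lay on opposite sides of 0.

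*Pou3f1* encodes the POU transcription factor OCT6, also called SCIP. It is a single-exon gene at chr4:124334896-124337899, plus strand (mm9). The annotation repeats it as a pseudogene entry of the same name over 3003 of its 3004 nt, so how reads were assigned between both entries is not known. FPKM of 28.8 and 14.6 were found in the control pair, and of 26.5, 15.1 and 13.0 in the cKO trio. The high control and the high cKO library were those of set 1, and the other 3 libraries lay together at a lower level. The genotype contrast was −0.23 (SE 0.33, 95% interval −0.99 to 0.52, adjusted p = 0.974), and it shrank to −0.12 within set 1 and −0.06 within set 2. Without control 1 it turned to 0.23, and without control 2 it was −0.70.

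*Spink8*, a member of the Kazal family of serine protease inhibitors, varied most. Its locus is chr9:109714794-109729147, plus strand (mm9), with a longest transcript of 741 nt. Control libraries held 21.0 and 47.7 FPKM, and the cKO libraries held 40.6, 19.9 and 19.9. Control 2 and cKO 1 were high and the other 3 were low, a split that follows neither genotype nor set. At the estimated depth the values stand for about 104, 233, 203, 75 and 94 fragments. On the log2 scale the difference was −0.32 (SE 0.38, 95% interval −1.19 to 0.55, adjusted p = 0.974). It was 0.92 within set 1 and −1.22 within set 2, opposite directions of similar size. Without control 1 it was −0.89 and passed the threshold, which uses an unadjusted p. In that fit the lone control is assumed to vary as the cKO libraries do. The smallest adjusted limma p of *Spink8* under any alternative was 0.656, in another fit, without cKO 1, where the gene did not pass. Without control 2 the log2 fold change was 0.26, so the genotype contrast of *Spink8* rested on which control was kept.

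Among the CA2 genes, *Rgs14* encodes a regulator of G-protein signalling that limits synaptic plasticity in CA2. Its locus is chr13:55471093-55486048, plus strand (mm9). Control libraries held 35.0 and 39.8 FPKM, and cKO libraries 40.1, 37.0 and 40.5 FPKM, all close together. The log2 fold change was 0.07 (SE 0.10, 95% interval −0.17 to 0.31, adjusted p = 0.974), and it was 0.19 within set 1 and −0.04 within set 2. *Rgs14* had the smallest spread and the narrowest interval of the 9 genes, and without control 1 its difference turned to −0.022.

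*Amigo2* encodes an adhesion protein with leucine-rich repeats and is at chr15:97074505-97077718, minus strand (mm9), where 58 of its 2871 exonic nt overlap *Fam113b* on the opposite strand. Its level was 7.14 and 6.05 FPKM without Cre, against 6.53, 5.67 and 7.56 FPKM with it. The group means, 6.59 ± 0.773 FPKM (SD, n = 2) and 6.58 ± 0.945 FPKM (SD, n = 3), differed by far less than either SD. Its log2 fold change was −0.0055 (95% interval −0.34 to 0.33, adjusted p = 0.997), the value nearest to 0 among the CA2 genes. It was −0.11 within set 1 and 0.10 within set 2.

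*Pcp4*, which encodes PEP-19, a small protein that speeds the exchange of calcium on calmodulin, had the highest level of the 9. Its locus is chr16:96689213-96747400, plus strand (mm9). It shares 243 of its 641 exonic nt with *Igsf5* on the same strand. FPKM of 161 and 230 were found in the control pair, and of 187, 265 and 212 in the cKO trio. In each genotype the library of set 1 was the lowest. The genotype difference was 0.19 (SE 0.19, 95% interval −0.24 to 0.61, adjusted p = 0.963), and it was 0.22 within set 1 and 0.04 within set 2. Without control 1 it turned to −0.069, and without control 2 it was 0.44.

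Of the CA3 genes, *Bok* encodes a member of the BCL-2 family and is at chr1:95582271-95592339, plus strand (mm9). Control libraries held 66.8 and 55.0 FPKM, and the cKO libraries held 66.6, 46.6 and 64.7. cKO 2 was the lowest, and the other cKO libraries were within the range of the controls. On the log2 scale the difference was −0.05 (SE 0.17, 95% interval −0.43 to 0.33, adjusted p = 0.989), and it was −0.0040 within set 1 and −0.0025 within set 2, both close to 0.

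*Iyd* encodes iodotyrosine deiodinase, the enzyme that recovers iodide from iodinated tyrosines, and was the lowest of the 9. Its locus is chr10:6791664-6806301, minus strand in this build (mm9). Its level was 1.96 and 3.99 FPKM without Cre, against 2.74, 2.50 and 4.42 FPKM with it. These values stand for only about 20 to 44 fragments, so counting error is large. The log2 fold change was 0.11 (SE 0.26, 95% interval −0.50 to 0.71, adjusted p = 0.989), and it was 0.34 within set 1 and −0.20 within set 2. Of the 9 genes *Iyd*, *Spink8* and *Pou3f1* had the widest intervals.

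The next comparison was between the sets of libraries, with genotype in the model, since the pattern of *Pou3f1* followed them. It was chosen after the values were seen. *Pou3f1* was lower in set 2 by 0.90 on the log2 scale (set 2 minus set 1 −0.90, SE 0.09, adjusted p = 0.0116), and 3.09% of all tested genes passed an adjusted p of 0.05 in this contrast. *Pcp4* was higher in set 2 (0.41, SE 0.10) at an unadjusted limma p of 0.00418, with an adjusted p of 0.0715. These were the 2 of 9 genes under an unadjusted p of 0.05, against 22.9% of all tested genes, a share near that background. FPKM of the sets did not overlap in 3 of the 9 genes (*Pou3f1*, *Pcp4* and *Bok*), against 40.1% of all tested genes. *Bok* was at −0.27 (adjusted p = 0.254), *Wfs1* at −0.22 (adjusted p = 0.310) and *Iyd* at 0.45 (adjusted p = 0.273). *Fibcd1*, *Rgs14*, *Amigo2* and *Spink8* lay between −0.09 and 0.11, with adjusted p-values of 0.443 to 0.933.

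**Figure D3:**
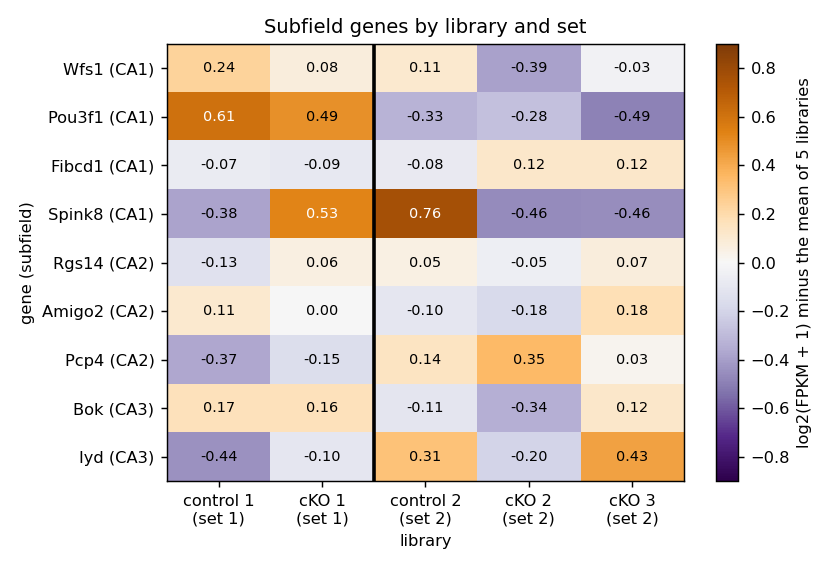
Log2(FPKM + 1) of each subfield gene minus its mean over the 5 libraries; columns are libraries ordered by set, the black line divides the sets, orange is above and purple below the mean. *Pou3f1* is at 0.61 and 0.49 left of the line and at −0.33, −0.28 and −0.49 right of it, while *Spink8* is high in cKO 1 (0.53) and control 2 (0.76).

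Base composition moved with the sets. Among 11760 tested genes with a coding transcript (92.3%), the quintile richest in GC (56.2% to 72.8%) had a median set difference of −0.12, and the other quintiles had medians of 0.03 to 0.11. The transcript of *Pou3f1* was 61.5% GC, at percentile 97.3 of these genes, and its set difference was at percentile 0.850 of its own quintile. *Bok* (60.9% GC) was at percentile 24.7 of that quintile and *Wfs1* at 33.5, while *Fibcd1* (59.4% GC) was at percentile 87.9 and *Rgs14* (57.6% GC) at 79.4. *Pcp4* (47.1% GC) and *Iyd* (45.7% GC) were at percentiles 96.1 and 97.7 of their quintile, which had a median of 0.11. *Spink8* (45.9% GC), in that same quintile, was at percentile 13.4, and *Amigo2* (51.0% GC) was at percentile 16.9 of its own quintile. The part of base composition in these differences was not tested.

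**Figure D4:**
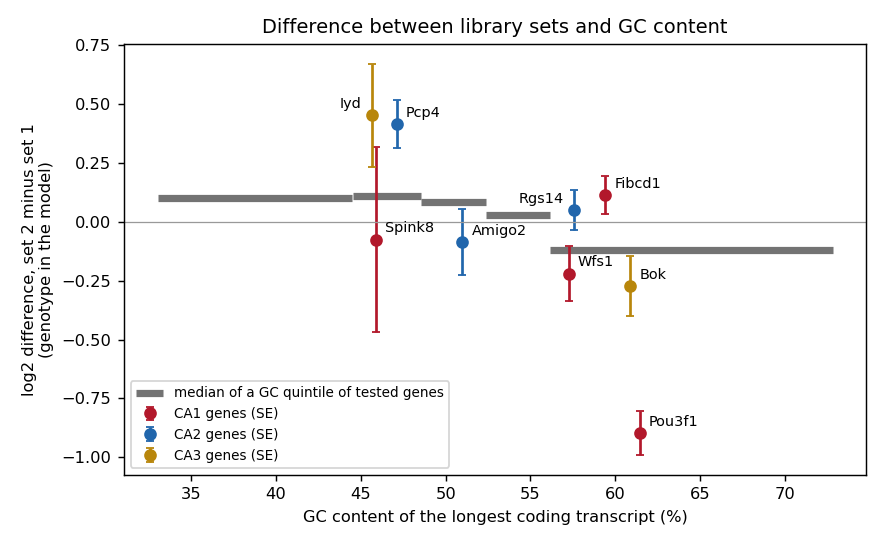
Log2 difference between sets (set 2 minus set 1, genotype in the model; bars are SE) against GC content of the longest coding transcript (%) for the 9 genes; grey bars are medians of quintiles of all tested genes over their GC range. *Pou3f1* (−0.90) lies far below the median of its quintile (−0.12), and *Fibcd1* and *Rgs14* lie above it.

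Patterns of the 9 genes were compared over the 5 libraries by the root mean square difference of centred log2(FPKM + 1), a description of 5 points in which neighbours share library, depth and base composition. The closest pair among the 9 was *Amigo2* with *Bok* (0.11), followed by *Fibcd1* with *Rgs14* (0.12) and *Wfs1* with *Bok* (0.13). The most distant pair was *Pou3f1* with *Iyd* (0.74). The 10 pairs within a field ran from 0.15 to 0.66 (median 0.38) and the 26 pairs across fields from 0.11 to 0.74 (median 0.36). Over all tested genes the nearest to *Pou3f1* was *Znhit2* (0.05), with control levels of 40.1 and 20.7 FPKM and cKO levels of 34.6, 21.6 and 18.9 FPKM. The nearest to *Spink8* was *Akr1b3*, at a distance of 0.23 against a spread of 0.53 in *Spink8* itself. The nearest to the others were *Sox12* for *Wfs1* (0.01), *Hadha* for *Fibcd1* (0.0087), *Zkscan5* for *Rgs14* (0.01), *Zfp862* for *Amigo2* (0.02), *Zfp940* for *Pcp4* (0.02), *Sox9* for *Bok* (0.03) and *Ube2t* for *Iyd* (0.09).

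Further genes of the same fields were read from lists of 5 CA1, 8 CA2 and 9 CA3 genes. Of these 22 genes 20 were tested. *Map3k15* (0.305 to 0.728 FPKM) and *Avpr1b*, the vasopressin receptor of CA2 (at most 0.106 FPKM, listed at 0 in cKO 3), were below the minimum. Of the 20 tested genes 10 were higher and 10 lower in cKO, with a median log2 fold change of 0.00075, and 0 passed the threshold or an unadjusted limma p of 0.05. With set in the model 1 of the 20, *Spock1*, had an unadjusted limma p under 0.05 (0.0355), a share below the 9.34% of all tested genes. In CA1, the highest value was 0.21 for *Man1a*, a mannosidase of the Golgi. In CA2 they ran from −0.16 for *Necab2*, a calcium-binding protein, to 0.21 for the neurotrophin *Ntf3*. In CA3 they ran from −0.23 for the proteoglycan *Spock1* to 0.23 for *Pvrl3*, which encodes the adhesion protein nectin-3. The median was −0.05 for the CA1 list, 0.06 for CA2 and 0.0047 for CA3, beside −0.26 for the 4 CA1 genes.

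Genes used for pyramidal neurons without regard to field were read beside the field-specific ones, although some of them, such as *Bcl11b*, are stronger in CA1 and the dentate gyrus than in CA3. Of 8 such genes 3 were higher and 5 lower in cKO, with a median log2 fold change of −0.07 and 0 past the threshold or an unadjusted limma p of 0.05. With set in the model *Nrgn* (−0.21) had an unadjusted limma p of 0.0172 and *Zbtb20* (0.27) of 0.00925, 2 of 8 genes against 9.34% of all tested genes. Without set in the model the 8 ran from −0.28 for *Nrgn*, which encodes the calmodulin-binding protein neurogranin, to 0.24 for the transcription factor *Zbtb20*. Between the sets 7 of the 8 had an unadjusted limma p under 0.05, against the 22.9% of all tested genes, 5 lower and 2 higher in set 2. *Bcl11b*, a transcription factor gene, was at 26.7 and 27.8 FPKM in set 1 and 18.6 to 19.7 FPKM in set 2 (set difference −0.47, adjusted p = 0.0317). *Neurod6*, a bHLH factor gene of pyramidal neurons, went the other way, at 64.0 and 66.2 FPKM in set 1 and 78.4 to 87.3 FPKM in set 2 (0.34, adjusted p = 0.0427).

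Markers of other cells and regions in the dissection were read beside these values. As a background for the counts below, a cutoff of 0.05 on the unadjusted limma p took in 4.36% of all tested genes. The same cutoff took in 9.34% of them once set was part of the model. Dentate granule cell genes (7 tested) had a median log2 fold change of −0.02, from −0.26 for *C1ql2* to 0.33 for *Trpc6*, the 1 gene of the list at an unadjusted limma p under 0.05. Cortical layer genes (4 of 6 tested) had a median of −0.27, from −0.53 for *Tbr1* to 0.18 for *Rorb*, 0 past the threshold and 2 at an unadjusted limma p under 0.05. Their summed level was 33.2 to 36.7 FPKM in the controls and 27.4 to 33.4 FPKM in cKO, and none was at 0. *Wfs1* is also a gene of the cortex, and the part of cortical tissue in its value was not tested. Thalamic genes (5 of 6 tested) had a median of 0.0078, from −0.24 for *Lef1* to 0.12 for *Zic1*. Interneuron genes (7) had a median of −0.04, from −0.54 for *Slc32a1* to 0.13 for *Npy*, and 1 gene, *Slc32a1*, at an unadjusted limma p under 0.05 (2 with set in the model, *Sst* being the other). Astrocyte genes (7) had a median of 0.21, from −0.02 for *Aldh1l1* to 0.78 for *Aqp4*, which passed the threshold (adjusted p = 0.175, and 0.0187 with set in the model). *Aqp4* and *Gfap* (0.43) were the 2 genes of the list at an unadjusted limma p under 0.05 (5 of 7 with set in the model, where *Slc1a3*, *Slc1a2* and *Gja1* joined them), and the summed level of the list was 1640 to 1656 FPKM in the controls and 1911 to 2039 FPKM in cKO. Oligodendrocyte genes (6) had a median of 0.11, with *Mag* lowest at −0.04, and microglia genes (6) of −0.00038, from −0.06 for *C1qa* to 0.23 for *Aif1*. Leptomeningeal genes (4 of 5 tested) had a median of 0.13, from 0.03 for *Lum* to 0.33 for *Col1a2*. Choroid plexus genes (3 of 5 tested) ranged from −0.10 for *Folr1* to 2.32 for *Ttr*, whose control levels were 157 and 1.33 FPKM and cKO levels 67.9, 589 and 20.7 FPKM. The part of choroid plexus in the subfield genes was not tested.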

How the data were processed

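Total RNA of whole hippocampus was sequenced in 2 control and 3 *Hdac1* cKO mice. The authors aligned reads with Tophat2 and deposited FPKM from Cufflinks 2.0.0 with the mm9 annotation. Strand use was not given in the sources used here. FPKM are not counts. Genotypes were compared with limma 3.58.1 under R 4.3.3 (trend, two-sided) on log2(FPKM + 1), keeping the 12740 genes that averaged 1 FPKM or more, with Benjamini-Hochberg adjustment over all of them. Fold changes on this scale understate those of low genes. Exact permutation tests used the 5 libraries. The fit was tested on simulated data with the same independent noise in all genes and no sets, so that check does not cover the sets seen here. Coordinates are from GENCODE vM1 (NCBIM37, the mm9 build). Sets came from genes under 0.3 FPKM (window of 0.05 log2, shared by over 10% of genes). Depth came from the commonest FPKM times length in genes with 1 transcript, resting on 30 to 77 genes per library, and carries no interval. BLAST 2.17.0 sought copies in mm9 (95% identity over 200 nt) and found none for the 9 genes. The set and GC comparisons were added after the values were seen. Members, lists and alternatives were chosen with earlier results of these data known. Named were the 9 genes, *Hdac1*, the largest rise and fall of each list, any of its genes past the threshold, and the nearest pattern (microRNA, snoRNA, scaRNA and predicted symbols left out). Some genes that this rule names are not reported here. *Igsf5*, *Fam113b*, *Gm10093*, untested list genes, *Bcl11b*, *Neurod6*, *Sst*, *Gfap*, *Slc1a3*, *Slc1a2* and *Gja1* were named after their values were seen.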

Additional observations from a re-analysis of the deposited data

How the results depend on the processing

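The number of genes past the threshold was 84 (51 higher, 33 lower), 142 with a pseudocount of 0.1, 43 with a minimum mean of 5 FPKM and 92 to 231 when 1 library was left out (231 without control 2, 152 without control 1 and 148 without cKO 1). These counts are from the limma fit used here, and the paper reports a different count and balance for young mice. Rescaling to a common total gave 51 higher and 73 lower, with an overall median of −0.05 in place of 0.01. Same-numbered libraries deviated together (r = 0.402 and 0.269 across genes), but the labels do not say that a number marks a pair; with the replicate block 133 genes passed. cKO 3 has no partner, so that fit rests on 4 libraries and gives the same fold changes as leaving out cKO 3. None of the 9 subfield genes passed the threshold under any alternative except *Spink8* without control 1. The median of CA2 genes was 0.0039 after rescaling to a common total and −0.022 to 0.16 with 1 library left out. That of CA1 genes was −0.46 to −0.046 with 1 library left out and −0.094 with the replicate block. That of CA3 genes (0.03) was −0.10 to 0.17 with 1 library left out, −0.10 with the replicate block, −0.02 after rescaling and −0.05 with the 5 FPKM minimum, which leaves *Bok* alone. Direction turned for *Iyd* with the replicate block (−0.086) and for *Amigo2* with the set block (0.0090). With 1 library left out the log2 fold change ran from −0.11 to 0.10 for *Amigo2*, −0.19 to 0.11 for *Bok*, −0.27 to 0.49 for *Iyd*, −0.069 to 0.44 for *Pcp4*, −0.70 to 0.23 for *Pou3f1*, −0.022 to 0.16 for *Rgs14* and −0.89 to 0.26 for *Spink8*. *Wfs1* (−0.39 to −0.15) and *Fibcd1* (0.06 to 0.20) kept their sign under all 14 alternatives. The alternatives reuse the same libraries and are not independent, and those of the filter or the variance trend cannot move these 2 fold changes. *Iyd* has no value with a minimum mean of 5 FPKM. The cause of these shifts was not tested.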
